A study of Mus musculus with 18 samples.

Results

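The transcripts of 60 cell cycle genes, 25 of S phase and 35 of G2 and mitosis (G2/M), were followed in single cells of gastrulating C57BL/6 wild-type mouse embryos. The genes were taken as a named list, all 60 were rows of the files, and they stand among 22997 nuclear genes measured. The E6.75 group (embryonic day 6.75) held 6 libraries of hand-picked cells made with CEL-Seq2, from embryos whose extraembryonic part had been cut off and which were dissociated one by one. The E7.5 group held 12 libraries of cells sorted by flow cytometry and made with mCEL-Seq2, its automated small-volume form, from embryos trimmed under the chorion so that extraembryonic mesoderm was kept, with 1 or 2 litters pooled. Neither group carried an engineered allele or a treatment. Stage, way of collecting cells and protocol changed together and cannot be told apart. The labels do not say which embryo a cell came from, so p-values measure the spread between libraries, some of which may share embryos.

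Both methods tag each captured polyadenylated RNA molecule near its 3′ end with a cell barcode and a molecular identifier, so that a count stands for molecules and not for amplified copies. Each library used 96 cell barcodes, and cells with at least 2000 nuclear transcripts were kept, which gave 543 of 576 cells at E6.75 and 429 of 1152 at E7.5. All libraries draw on the same set of barcodes, so that a barcode found in several marks no shared cell. E7.5 replicate 5 had 0 such cells and took no part, which left 11 libraries at that stage. The E6.75 libraries held 2921860 to 5493790 kept transcripts and the E7.5 libraries 488908 to 2618540. Their median cells held 22331 to 54686 and 18982 to 57140 transcripts. Mitochondrial transcripts took 13.7% to 18.6% of the earlier libraries and 8.99% to 14.3% of the later. All 8 markers of the embryo proper were detected at both stages, together 0.105% to 0.194% of a library's transcripts in the earlier group and 0.0813% to 0.159% in the later. All 16 visceral endoderm markers were also present, at 0.0248% to 0.123% and 0.0040% to 0.0493%. The 7 extraembryonic ectoderm markers made up 0.00093% to 0.0086% and 0.0014% to 0.0144%. Of 10 blood and endothelial markers, Hbb-bh1 and Hbb-y had no transcript at E6.75, and the list made up 0.0010% to 0.0066% and 0.0029% to 0.0427%. At least 0.5% of transcripts from visceral endoderm markers, or at least 3 extraembryonic ectoderm markers detected, were found in 51 cells at E6.75 and 10 at E7.5. When these cells were left out, Tyms and Rfc2 alone of the members called between stages lost their calls. The part of blood and endothelial cells in the differences between stages was not tested.

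In a dividing cell, the MCM helicase is loaded onto replication origins in G1 by Cdc6 and Cdt1, origins fire in S phase, and ribonucleotide reductase and thymidylate synthase supply the nucleotides. Cyclin A and B kinases then drive the cell into mitosis, where motors and kinetochores move the chromosomes and the anaphase-promoting complex (APC/C) ends the phase by marking cyclin B and others for destruction. Transcripts of both groups rise and fall with the cycle: E2F factors are known for the S phase genes, and the MuvB complexes, which bind CHR elements and act with NF-Y at CCAAT boxes, for the G2/M genes. Epiblast cells of the gastrulating mouse embryo are known for very short cycles, and cells of the primitive streak for the shortest.

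Between the cells of a library, S transcripts and G2/M transcripts tended to be high in different cells. This was seen in 788 cells with at least 10000 transcripts, each thinned at random to 10000, in 17 libraries, which left out 94 shallower cells at E6.75 and 90 at E7.5, and all values are means of the libraries with equal weight. Cells of 1 library are not replicates, so these correlations are descriptions and carry no p. The mean Pearson correlation over pairs of G2/M genes was 0.0997 ± 0.0288 (SD between libraries), over pairs of S genes 0.0568 ± 0.0167, and between an S and a G2/M gene -0.0366 ± 0.0203. The value across the groups lay below both values within groups in 17 of 17 libraries. The cell's summed S transcripts and summed G2/M transcripts had a mean correlation of -0.34 ± 0.16 (SD), negative in all libraries but E6.75 replicate 2_9, where it was 0.14. Of the S genes, 23 of 25 followed the S sum more closely than the G2/M sum, and of the G2/M genes 34 of 35 followed the G2/M sum more closely, the gene itself left out of its sum. The exceptions were Pola1 and Rfc2 among the S genes and Nuf2 among the G2/M genes. Cells of the upper tertile of the G2/M sum had been deeper before thinning than those of the lower in 13 of 17 libraries, and the same count held for the S sum. The part of depth in these correlations was not tested.

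**Figure D1:**
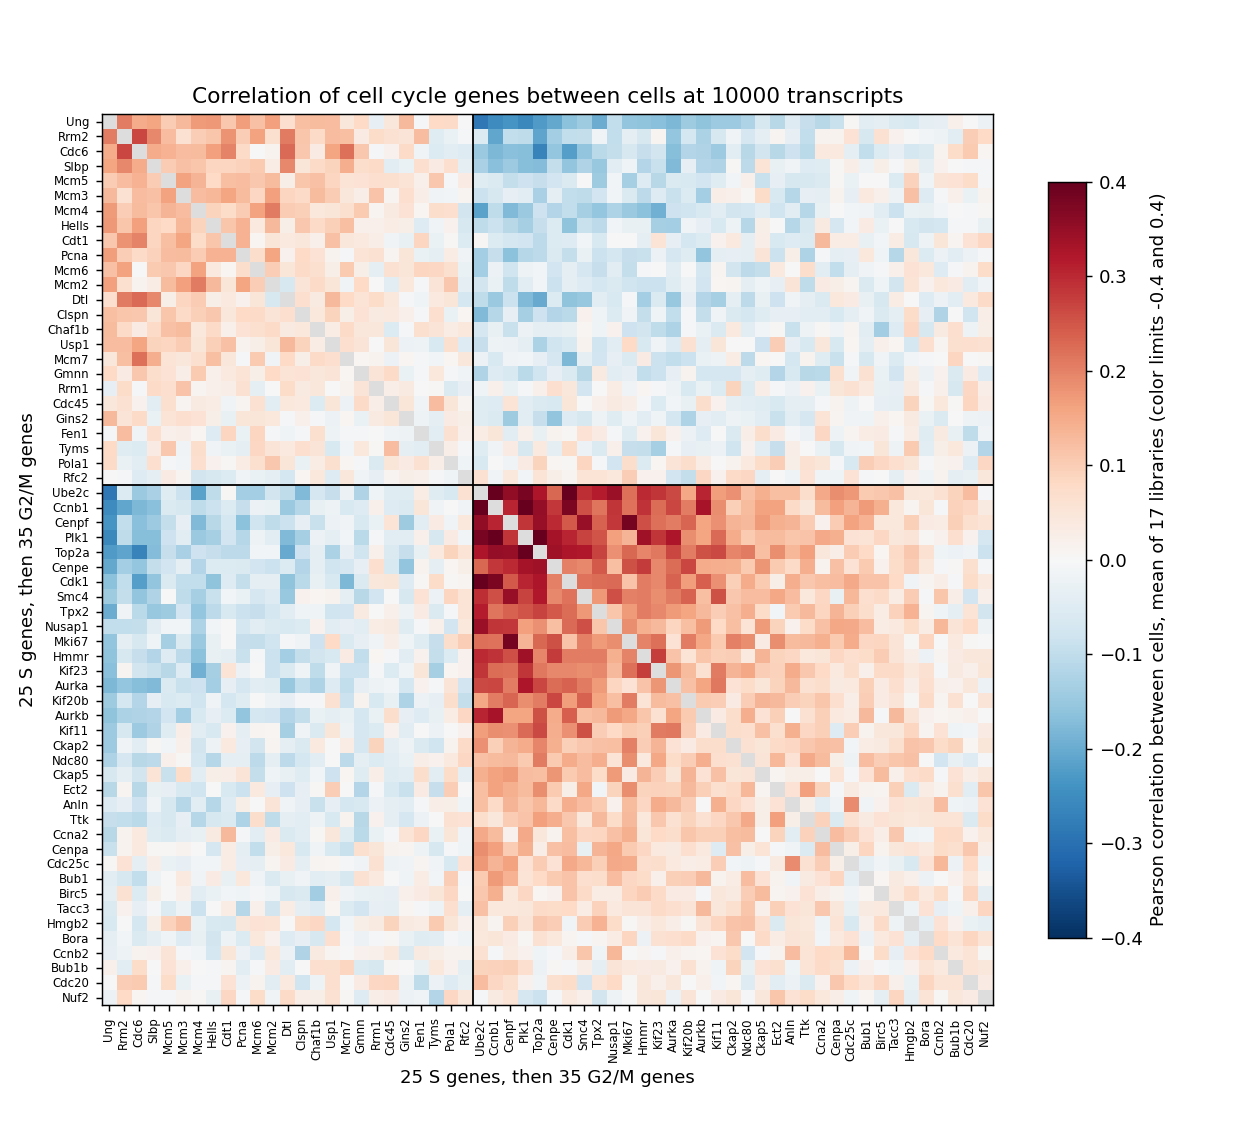
Pearson correlation between cells for each pair of the 60 genes, in cells thinned to 10000 transcripts, as the mean of 17 libraries. S genes come first and G2/M genes after the black lines, each ordered by correlation with their own summed score, and colors saturate at -0.4 and 0.4. A red block of G2/M genes around Ube2c, Ccnb1, Cenpf, Plk1 and Top2a stands beside a paler S block, with blue between them.

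The mitotic genes at the core of that block encode enzymes and structural proteins of mitosis. Ube2c, the ubiquitin-conjugating enzyme of the APC/C, followed the other G2/M genes most closely (0.58), ahead of Ccnb1 (0.54), which encodes cyclin B1, Cenpf (0.52), a protein of the kinetochore corona, and Plk1 (0.52), the Polo kinase. The highest correlation of any pair of members was that of Ccnb1 with Ube2c (0.49), followed by Ccnb1 with Plk1 (0.41) and Cdk1 with Ube2c (0.41). Among the S genes, Ung (0.34), a uracil-DNA glycosylase, Rrm2 (0.34), the small subunit of ribonucleotide reductase, and Cdc6 (0.33), which loads the helicase, followed the S sum most closely. Several members hardly followed their group. Values under 0.09 were found for Nuf2 (0.016), Cdc20 (0.062), Bub1b (0.071), Ccnb2 (0.078) and Bora (0.087) among the G2/M genes, and for Rfc2 (-0.054), Pola1 (0.055), Tyms (0.060), Fen1 (0.067), Gins2 (0.068), Cdc45 (0.078) and Rrm1 (0.084) among the S genes. Fen1 had a mean of 0.0471 transcripts per 10000, at which a correlation can hardly be seen.

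Ube2c, Cenpf and Ccnb1 were also among the members that spread most widely between cells. The variance over the mean, which is 1 for pure counting noise, had a median of 1.10 over 8369 genes with a mean of at least 0.1 transcript per 10000, of 1.19 over the S genes and of 1.27 over the G2/M genes. The highest values belonged to Top2a (2.69), the topoisomerase that untangles chromosomes, Ube2c (2.46), Cenpf (2.13), Ccnb1 (2.01) and Cenpe (1.77), a kinetochore motor. The lowest belonged to Rfc2 (1.01), Bub1b (1.02), Cdc20 (1.02), Pola1 (1.05) and Gmnn (1.05). Well-expressed and poorly expressed members are mixed here, and a low mean holds the ratio near 1.

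Outside the 60, genes that followed the G2/M sum closely included Arl6ip1 (0.51), Gm10184 (0.41), Incenp (0.39), Kpna2 (0.38), Aspm (0.35), Ccnf (0.32), Fzr1 (0.31), Casc5 (0.30) and Tubb4b (0.30). Those close to the S sum included Pcna-ps2 (0.36), Rpa2 (0.31), Mcm10 (0.28), Srsf2 (0.28), Atad2 (0.27), Msh6 (0.27), Cdca7 (0.27), Cdc25a (0.26) and 2810417H13Rik (0.26). The median over the other genes was 0.0037 for the G2/M sum and 0.0027 for the S sum. Pcna-ps2 is a pseudogene of Pcna, the sliding clamp of the replication fork, and, not divided by length, was listed with more transcripts than the gene itself in every library but E7.5 replicate 9, where it stood at 302 CPM (nuclear transcripts of a library scaled to 1000000) and Pcna at 320.1 CPM. At E6.75 it stood at 156 to 407 CPM (median 264) against 91.0 to 199 CPM (median 147) for Pcna. The authors' assignment of reads can split such near-identical copies, so the values of Pcna are uncertain.

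Promoter sequences of the genes that followed their group most closely are shown because the 2 groups moved together within themselves. They are the 250 bases before the transcription start in RefSeq (GRCm38.p6), written in the direction of the gene, with capitals for any match to CCAAT, the CHR element (TTTGAA or TTCGAA) or the E2F element (TTCCCGC, or the form TTGGCGC, or the form TTCGCGC, or the form TTGCCGC) on either strand. The S gene promoters lie at chr5:114130185-114130434 (+ strand) for Ung and chr12:24708004-24708253 (+ strand) for Rrm2, and the G2/M gene promoters at chr2:164769679-164769928 (+ strand) for Ube2c and chr13:100786487-100786736 (- strand) for Ccnb1.
Ung: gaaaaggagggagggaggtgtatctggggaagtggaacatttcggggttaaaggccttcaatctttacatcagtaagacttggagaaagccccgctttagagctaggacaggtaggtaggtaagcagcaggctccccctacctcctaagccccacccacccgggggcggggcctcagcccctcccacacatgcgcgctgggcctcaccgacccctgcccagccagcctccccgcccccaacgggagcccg
Rrm2: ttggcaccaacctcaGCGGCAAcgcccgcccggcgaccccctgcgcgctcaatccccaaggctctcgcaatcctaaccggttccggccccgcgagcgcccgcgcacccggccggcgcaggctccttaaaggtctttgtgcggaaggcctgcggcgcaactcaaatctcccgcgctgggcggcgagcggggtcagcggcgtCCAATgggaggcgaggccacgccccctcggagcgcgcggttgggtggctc
Ube2c: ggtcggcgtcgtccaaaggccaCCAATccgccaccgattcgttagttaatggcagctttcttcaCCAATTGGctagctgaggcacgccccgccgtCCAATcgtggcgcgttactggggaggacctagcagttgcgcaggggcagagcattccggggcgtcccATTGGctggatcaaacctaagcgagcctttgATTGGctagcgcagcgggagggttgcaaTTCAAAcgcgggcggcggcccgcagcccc
Ccnb1: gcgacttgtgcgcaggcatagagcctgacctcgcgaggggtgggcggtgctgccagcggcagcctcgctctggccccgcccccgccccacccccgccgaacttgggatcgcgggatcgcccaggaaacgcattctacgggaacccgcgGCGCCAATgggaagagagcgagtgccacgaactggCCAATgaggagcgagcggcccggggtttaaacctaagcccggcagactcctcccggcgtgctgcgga

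The Ube2c window holds 6 CCAAT matches and 1 CHR match, counting both strands, and the joined capitals in it are a CCAAT on each strand overlapping by 2 bases. In the Ccnb1 window there are 2 CCAAT matches, and an E2F match runs into the upstream one on the opposite strand, sharing 4 bases with it. Rrm2 has 1 CCAAT and 1 E2F match, and none of these letters is in the window of Ung. RefSeq promoters were at hand for 49 of the 60 members, some of them with more than 1 start. CCAAT was found in 14 of 22 S promoters (63.6%) and 23 of 30 G2/M promoters (76.7%), against 33.8% of all 32851 RefSeq promoters of the same length. The E2F letters were found in 12 S promoters (54.5%) and 6 G2/M promoters (20%), against 7.89% of all. A CHR match was found in 13 G2/M promoters (43.3%), each of which also held CCAAT, and in 4 S promoters (18.2%), against 17.1% of all, or 6.02% with both. Bub1b, Cdc20, Cdk1, Hmgb2, Kif11, Mki67 and Top2a are among the members with both letters. A match is a string of letters and no evidence of a bound factor.

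Between the stages, 19 of the 35 G2/M genes fell to E7.5 and 1 rose, while of the 25 S genes 8 fell and 3 rose. Of all genes tested, 21% fell and 21.6% rose, so the S genes were called about as often as genes in general. Per cell, the 35 G2/M genes together gave 71.5 to 84.4 transcripts per 10000 in the E6.75 libraries (median 77.9, mean 78.4 ± 4.51 SD, n = 6) and 52.5 to 70.8 in the E7.5 libraries (median 60.7, mean 60.5 ± 5.43 SD, n = 11). No E7.5 library reached the lowest E6.75 library. In cells thinned to 10000 transcripts the stages overlapped, since E7.5 replicate 9, with 10 such cells, had a mean of 79.1 against 77.7 to 89.9 in the E6.75 libraries, and the other E7.5 libraries had 54.3 to 72.3. The 25 S genes gave 37.4 to 48.4 at E6.75 (median 46.6, mean 45.3 ± 4.16 SD) and 39.9 to 47.8 at E7.5 (median 44.6, mean 44.6 ± 2.52 SD), and all of the E7.5 values fell within the E6.75 range. The lowest E6.75 value of both sums came from replicate 2_9, and the highest G2/M sums at E7.5 from replicates 9 and 10, with 15 and 23 kept cells. The scores add members of very different level, so a few abundant genes weigh most in them.

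**Figure D2:**
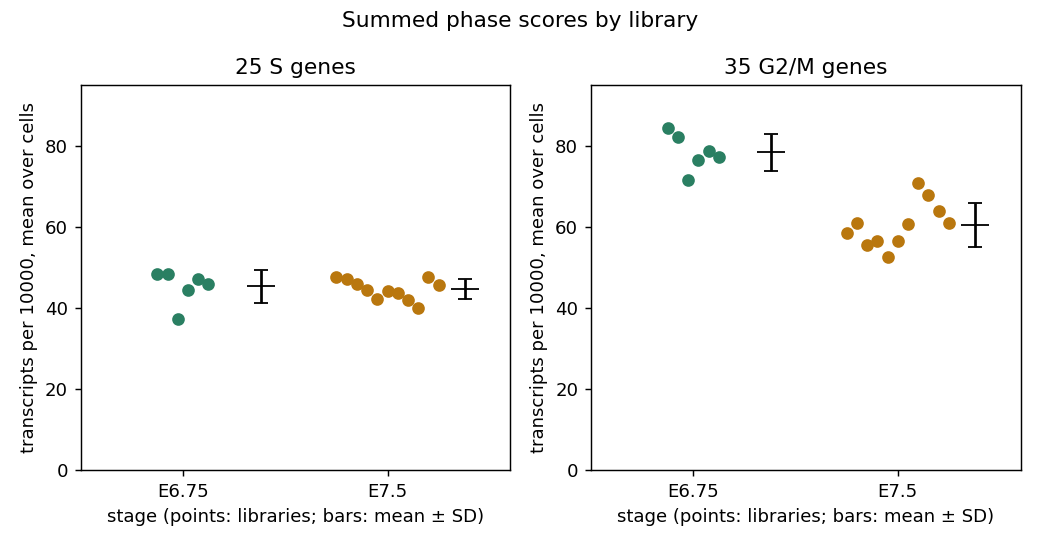
Transcripts of the 25 S genes (left) and the 35 G2/M genes (right) per 10000 nuclear transcripts, as the mean over the kept cells of each library (points), with the mean ± SD of the libraries of a stage (bars). The G2/M sums of the 11 E7.5 libraries all lie at or below 70.8, under the lowest E6.75 library at 71.5, while the S sums overlap.

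Gene by gene, library sums were compared with limma (voom weights, TMM scaling, Benjamini-Hochberg adjustment over 9998 genes, called at an adjusted p below 0.05). Of the members, 31 of 60 were called, against 42.6% of all genes tested. Of these, 27 were lower at E7.5, against 21% of all genes, and 4 were higher, against 21.6%. The median log2 fold change was -0.38 over the G2/M genes and -0.07 over the S genes. The median over all genes tested was 0.016. For 8 members the lowest library of one stage lay above the highest of the other, 2 of S and 6 of G2/M, against 8.24% of all genes. All 60 members passed the filter on low counts. In such sums, fewer cells in a phase and less RNA per cell cannot be told apart.

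**Figure D3:**
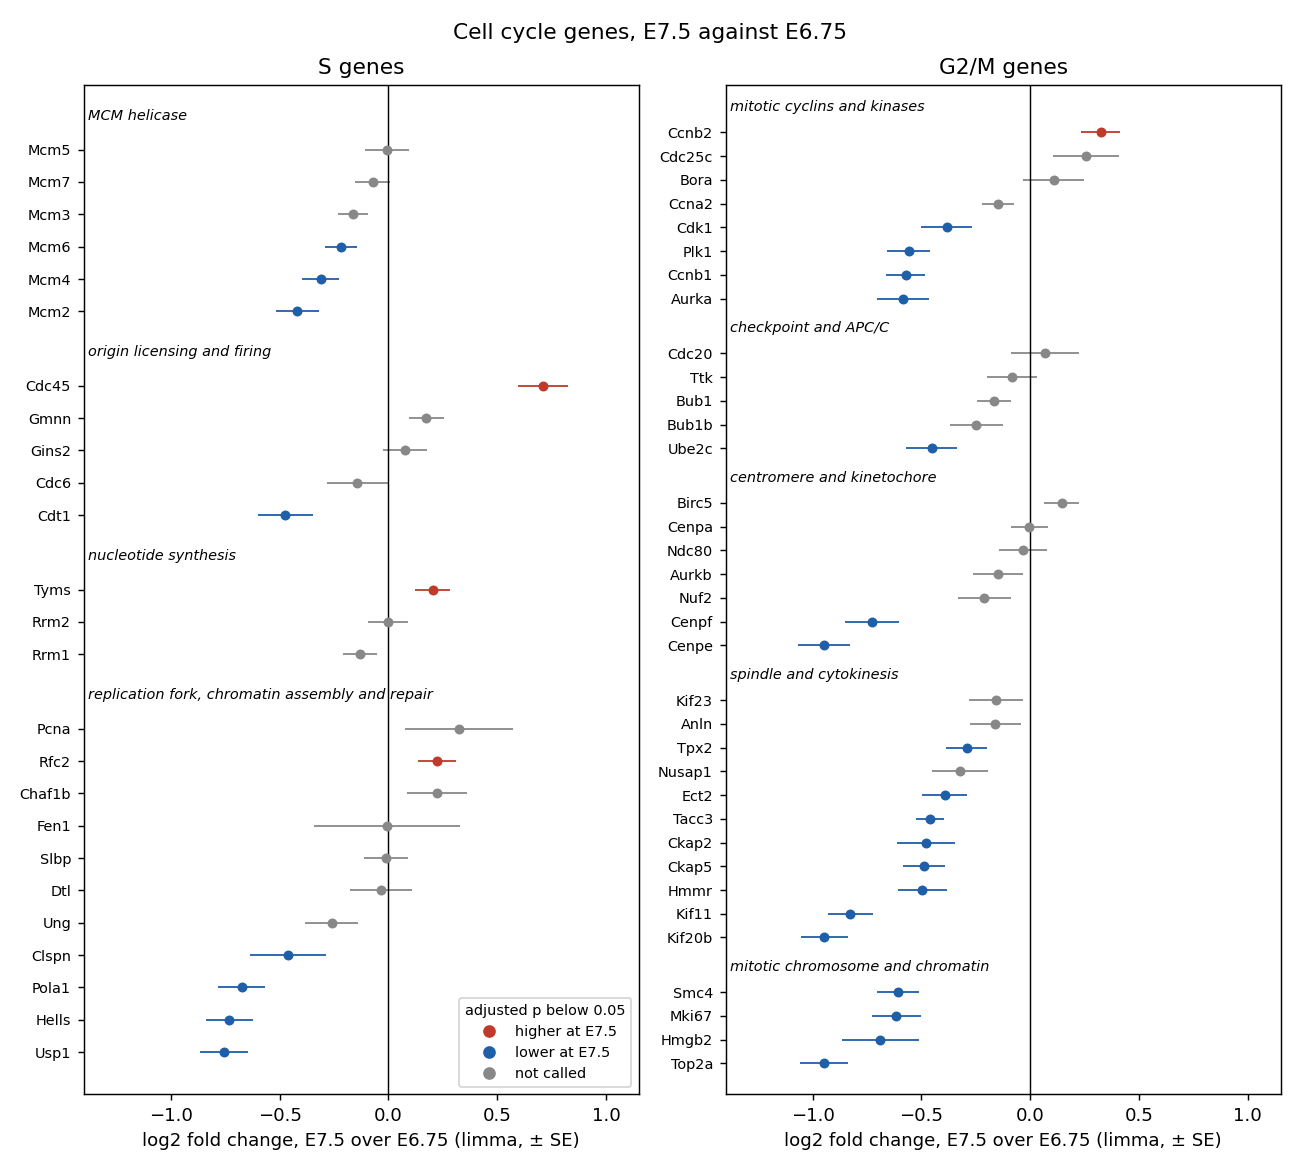
Log2 fold change of each member, E7.5 over E6.75, with its standard error (limma, 6 against 11 libraries), ordered within role groups and colored by the call. All 4 genes of mitotic chromosomes and all 11 spindle genes lie to the left of 0. All 4 of the former and 8 of the latter were called lower, while the S panel has called genes on both sides.

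All 4 genes of mitotic chromosomes and chromatin fell. Top2a ran from 879 to 1100.2 CPM (median 968) at E6.75 and 413 to 854 CPM (median 512) at E7.5. Every E7.5 library lay below every E6.75 library, and the log2 fold change was -0.95 ± 0.11 (SE) (adjusted p = 1.24e-06, limma). Smc4, a condensin subunit that compacts chromosomes, gave 609.7 to 790.0 CPM (median 707) at E6.75 and 371 to 607 CPM (median 474) at E7.5, again without overlap (log2 fold change -0.61 ± 0.097 (SE), adjusted p = 4.43e-05). Mki67, whose protein Ki-67 coats mitotic chromosomes and is the common marker of proliferating cells, gave 343 to 641 CPM (median 376) at E6.75 and 236 to 325 CPM (median 291) at E7.5. Its 2 ranges did not overlap either (log2 fold change -0.61 ± 0.11 (SE), adjusted p = 2.16e-04). Hmgb2, a DNA-bending chromatin protein, gave 819.7 to 1338 CPM (median 1046) at E6.75 and 349 to 993 CPM (median 675) at E7.5, and its ranges overlapped widely (log2 fold change -0.69 ± 0.18 (SE), adjusted p = 0.00333). Its E7.5 libraries fell apart, with replicates 1, 2, 3, 4 and 6 at 349 to 592 CPM and replicates 7 to 12 at 675 to 993 CPM, of which 9 to 12 lay within the E6.75 range. Pcna parted in the same way, at 95.1 to 146 CPM and 179 to 334 CPM, a split noticed after the values were seen, for which the labels give no batch.

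In the spindle and cytokinesis group 8 of 11 fell and none rose. Kif20b, a kinesin of cytokinesis, went from 199 to 301 CPM (median 219) to 91.4 to 160.3 CPM (median 125), with no overlap (log2 fold change -0.95 ± 0.11 (SE), adjusted p = 8.91e-07), and Cenpe and Top2a fell as far. Kif11, the motor that pushes the spindle poles apart, went from 130.2 to 164 CPM (median 136) to 63.4 to 139 CPM (median 80.4), where only E7.5 replicate 9 reached the E6.75 range (log2 fold change -0.83 ± 0.10 (SE), adjusted p = 2.67e-06). Tacc3, which stabilizes spindle microtubules, fell less but as evenly. It gave 173 to 214 CPM (median 199.5) at E6.75 and 129 to 166 CPM (median 146) at E7.5, without overlap (log2 fold change -0.46 ± 0.065 (SE), adjusted p = 1.19e-05). Smaller falls were called for Hmmr (-0.50), Ckap5 (-0.49), Ckap2 (-0.48), Ect2 (-0.39) and Tpx2 (-0.29), in log2 fold change, which encode spindle proteins and the activator of the cytokinetic furrow. Nusap1 (-0.32), Anln (-0.16) and Kif23 (-0.16) did not pass. Nusap1 missed narrowly at an adjusted p of 0.0508 (limma).

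Of 7 centromere and kinetochore genes only the 2 large ones passed. Cenpe went from 234 to 379 CPM (median 267) to 103 to 203 CPM (median 154), with no overlap (log2 fold change -0.95 ± 0.12 (SE), adjusted p = 3.16e-06). Cenpf gave 359.8 to 592 CPM (median 424) at E6.75 and 191 to 439.7 CPM (median 270.4) at E7.5, and only E7.5 replicate 9 reached the E6.75 range (log2 fold change -0.73 ± 0.12 (SE), adjusted p = 7.91e-05). The centromeric histone Cenpa (-0.0035), the outer kinetochore genes Ndc80 (-0.033) and Nuf2 (-0.21) and the chromosomal passenger genes Aurkb (-0.15) and Birc5 (0.15) were not called, with adjusted p from 0.149 for Birc5 to 0.976 for Cenpa (limma).

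Mitotic cyclins and kinases divided. Ccnb1 was at 336 to 500.3 CPM (median 411) at E6.75 and 241 to 379.9 CPM (median 282) at E7.5, the higher end of E7.5 reaching into the E6.75 range (log2 fold change -0.57 ± 0.091 (SE), adjusted p = 4.37e-05). Its partner kinase Cdk1 was at 308 to 510.5 CPM (median 382) at E6.75 and 239 to 425 CPM (median 298) at E7.5 and overlapped over most of the range (log2 fold change -0.38 ± 0.12 (SE), adjusted p = 0.0122). The mitotic kinases Aurka (-0.58) and Plk1 (-0.56) fell too. Ccnb2, the second B-type cyclin, rose, from 82.9 to 127 CPM (median 95.5) to 102 to 153 CPM (median 128), with overlapping ranges (log2 fold change 0.32 ± 0.089 (SE), adjusted p = 0.00584). Cdc25c (0.26), the phosphatase that activates Cdk1, Bora (0.11) and Ccna2 (-0.15) did not pass. Among checkpoint and APC/C genes, Ube2c fell, with 455 to 517 CPM (median 488) at E6.75 and 261 to 541 CPM (median 398) at E7.5, where the wider E7.5 range took in the whole E6.75 range (log2 fold change -0.45 ± 0.12 (SE), adjusted p = 0.004). Bub1 stood at 124 to 156 CPM (median 143) at E6.75 and 106 to 165 CPM (median 133) at E7.5 and was not called (log2 fold change -0.17 ± 0.079 (SE), adjusted p = 0.0963, limma). Neither were the checkpoint kinase genes Bub1b (-0.25) and Ttk (-0.083) or the APC/C activator Cdc20 (0.068).

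**Figure D4:**
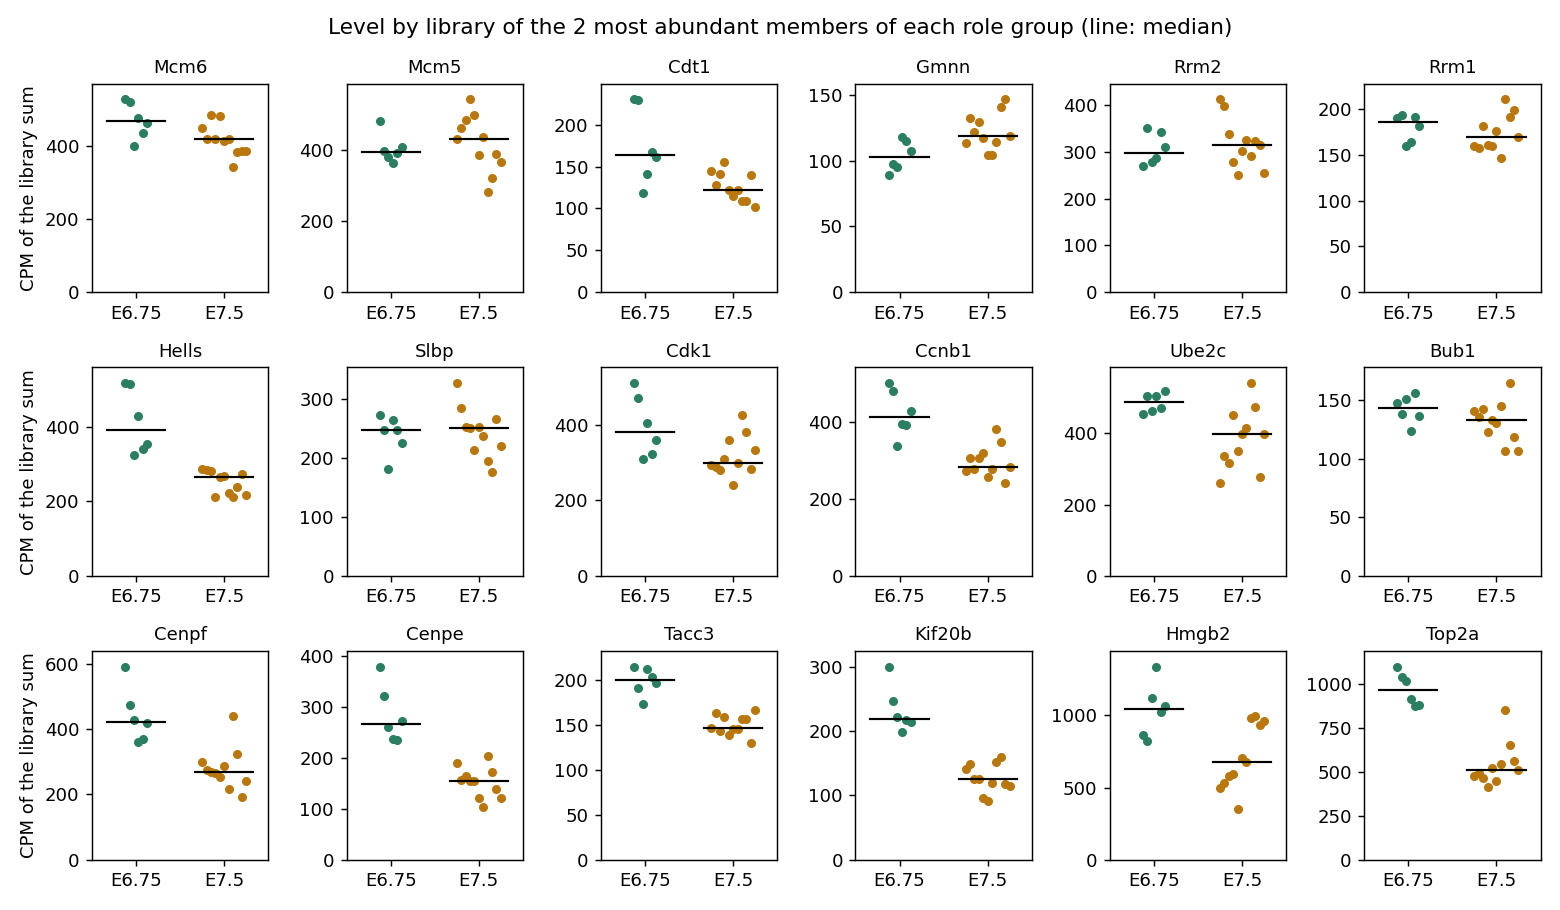
CPM in each library of the 2 members with the highest mean CPM in each of the 9 role groups, at E6.75 (6 points) and E7.5 (11 points), with the median as a line and every axis starting at 0. Hells, Cenpe, Tacc3, Kif20b and Top2a show no overlap of the stages, while Mcm5, Rrm1, Rrm2, Slbp and Bub1 overlap over most of their range.

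Of the 6 MCM helicase subunits among the S genes, 3 fell and none rose. Mcm6 gave 401 to 529 CPM (median 470.0) at E6.75 and 343 to 486 CPM (median 419) at E7.5 and Mcm5 364 to 482 CPM (median 396) at E6.75 and 281 to 544 CPM (median 432) at E7.5. Ranges overlapped in both cases, and only Mcm6 was called (log2 fold change -0.22 ± 0.074 (SE), adjusted p = 0.0224), as were Mcm2 (-0.42) and Mcm4 (-0.31), but not Mcm3 (-0.16), Mcm7 (-0.072) and Mcm5 (-0.0054). When each cell was thinned to 2000 transcripts, Mcm4 and Mcm6 turned to log2 fold changes of 0.075 and 0.12, neither of them called. The licensing factor Cdt1 fell, from 119 to 231 CPM (median 165) to 102 to 155 CPM (median 122) (log2 fold change -0.47 ± 0.13 (SE), adjusted p = 0.00459), and its inhibitor geminin, Gmnn, was not called, at 89.0 to 118 CPM (median 103) at E6.75 and 104 to 147 CPM (median 119) at E7.5 (log2 fold change 0.17 ± 0.080 (SE), adjusted p = 0.0825). Cdc45, which turns the loaded helicase into an active one, had the largest rise of any member. It went from 22.8 to 33.5 CPM (median 24.7) to 33.4 to 55.8 CPM (median 43.2), and only the E6.75 library 2_13 touched the E7.5 range (log2 fold change 0.71 ± 0.11 (SE), adjusted p = 5.07e-05). Cdc6 (-0.14) and Gins2 (0.077) were not called.

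Among nucleotide synthesis genes, Rrm2 stood at 269 to 352 CPM (median 298) at E6.75 and 249 to 413 CPM (median 315) at E7.5 and Rrm1 at 160.0 to 194 CPM (median 186) at E6.75 and 146 to 211 CPM (median 170.1) at E7.5. Neither was called, with log2 fold changes of -0.0039 ± 0.092 (SE) and -0.13 ± 0.078 (SE). Tyms, thymidylate synthase, rose slightly, from 82.1 to 96.2 CPM (median 86.3) to 90.1 to 134 CPM (median 106) (log2 fold change 0.20 ± 0.080 (SE), adjusted p = 0.0451). The replication fork, chromatin assembly and repair group held the largest falls of the S genes. Usp1, a deubiquitinase acting on the sliding clamp, went from 238 to 309.5 CPM (median 259) to 102 to 203 CPM (median 169) without overlap (log2 fold change -0.75 ± 0.11 (SE), adjusted p = 1.59e-05). Hells, a chromatin remodeler of the DNA methylation machinery, went from 325 to 518 CPM (median 391) to 211 to 287 CPM (median 266), also without overlap (log2 fold change -0.73 ± 0.11 (SE), adjusted p = 1.98e-05). Pola1, the catalytic subunit of DNA polymerase alpha, fell (-0.68), as did Clspn (-0.46), a checkpoint mediator, and Rfc2 (0.22), a subunit of the clamp loader, rose. Slbp, which binds histone mRNA stem loops, was not called, at 182 to 273 CPM (median 248) at E6.75 and 177 to 328 CPM (median 251) at E7.5 (log2 fold change -0.010 ± 0.10 (SE), adjusted p = 0.942). Chaf1b (0.22), Dtl (-0.036), Ung (-0.26), Fen1 (-0.0063) and Pcna (0.32) were not called either, Pcna with a SE of 0.25 and its pseudogene copy at 0.37 ± 0.16 (SE, adjusted p = 0.0747, limma).

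The calls on Tyms and Rfc2 lie at adjusted p of 0.0451 and 0.0483 (limma) and were lost on leaving out most single libraries. The call on Tyms held only without E6.75 replicate 2_13 and E7.5 replicates 1, 2 and 12, and that on Rfc2 only without E6.75 replicate 1_10 and E7.5 replicates 1, 2, 4, 6 and 8. The call on Clspn was lost without any 1 of E6.75 replicates 1_10, 1_11, 2_12 and 2_13 and of E7.5 replicates 6, 7, 10, 11 and 12, and that on Mcm6 without either of E6.75 replicates 1_10 and 1_11. Those on Cdk1 and Tpx2 were lost with the 4 E6.75 libraries of title prefix 2 alone. The E6.75 libraries parted by title prefix for several members. Both libraries of prefix 1 lay above all 4 of prefix 2 for Cdt1, Hells, Mki67, Cdk1 and Ccnb1, among others. For Hmgb2 and Pcna, among others, they lay below all 4. With all cells thinned to 2000 transcripts 14 members were called, in place of 31. In 13 members the call held in every setting tried, which were Ccnb2, Hells, Usp1, Ccnb1, Plk1, Cenpe, Cenpf, Kif20b, Tacc3, Top2a, Mki67, Smc4 and Hmgb2. Those on Cdc45 and Ect2 held in every setting but the thinning, in which both fell below the filter on low counts and were not tested.

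Other genes of the same phases were taken from further lists, which were also chosen with earlier results of these data known. In a list of 35 further S phase genes 11 fell and 2 rose, with a median log2 fold change of -0.11, and in a list of 50 further G2/M genes 21 fell and 3 rose, with a median of -0.22. Of all genes tested, 21% fell and 21.6% rose. The largest changes in the S list were those of Chaf1a, the large subunit of a histone chaperone (-1.46 ± 0.28 SE), Nasp, a histone H1 and H3 chaperone (-0.77 ± 0.085), and Casp8ap2 (-0.72 ± 0.17). In the G2/M list they were those of Prc1, which bundles midzone microtubules (-1.70 ± 0.21), Gas2l3 (-1.16 ± 0.16) and Sgol2a, a shugoshin that guards centromeric cohesion (-0.98 ± 0.12).

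Members with long transcripts had the lower fold changes. Lengths were those of the longest transcript in GENCODE vM21 (GRCm38), which all 60 members had. Across the 60 genes, which are not independent replicates, log2 length and log2 fold change had a Pearson correlation of -0.50, with -0.51 over the S genes and -0.50 over the G2/M genes. Over 9711 tested genes with a length it was -0.062. Of 10 members longer than 5000 bases, 9 were called lower, beside 609 of 2347 among all genes of that length, and their median log2 fold change was -0.70. These were Pola1, Hells, Clspn, Cenpe, Cenpf, Kif20b, Ckap5, Top2a and Mki67, and Rrm1 was not called. The 12 members of up to 2500 bases held 2 of the 4 called higher, Cdc45 and Ccnb2, and 4 called lower, Aurka, Ccnb1, Plk1 and Ube2c. Over all genes, those longer than 5000 bases had a median of -0.035. Protocol and stage cannot be told apart here, and the part of transcript length in the difference was not tested.

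**Figure D5:**
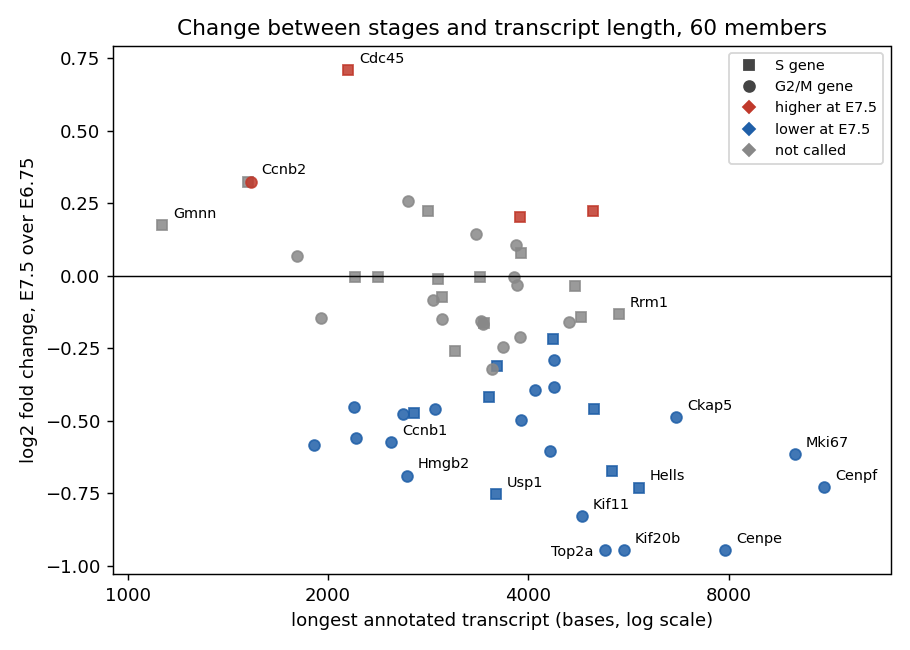
Log2 fold change, E7.5 over E6.75, against the length of the longest annotated transcript (log scale) for the 60 members, with squares for S genes, circles for G2/M genes and colors for the call. The 10 members over 5000 bases all lie below 0, from -0.13 for Rrm1 to -0.95 for Kif20b.

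To see whether the cycle genes differ between cells that express regulators of the germ layers, cells with at least 1 transcript of T, Mesp1, Foxa2 or Sox2 were set against the other cells of the same library. Both arms of a library entered 1 limma fit with the library as a block and both stages together, libraries with at least 5 cells in each arm. A cell without a transcript of a marker need not lack it, and cells with one were deeper. In these comparisons 59 members were tested, Fen1 being too low. Few were called, and the difference of the stages was called for no member in any of the 4.

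T (Brachyury) marks the primitive streak and early mesoderm. It was detected in 156 of 543 kept cells at E6.75 and 283 of 429 at E7.5, and 6 and 10 libraries entered. The median cell with T held 54723 transcripts at E6.75 against 30409 without, and 34146 against 22284 at E7.5. No member was called at either stage, against 4.65% of all genes at E6.75 and 2.25% at E7.5. At an unadjusted p below 0.05, limma gave 0 of 59 members at E6.75, beside 1231 of 8266 genes, and 6 of 59 at E7.5, beside 1078 of 8266. Log2 fold changes of the members ran from -0.17 to 0.16 at E6.75, with 95% intervals that reached 0.15 to either side in the median gene, and from -0.33 to 0.33 at E7.5, with 0.22. The smallest p at E6.75 was that of Chaf1b (-0.17 ± 0.086 (SE), adjusted p = 0.378, limma) and at E7.5 that of Cdt1 (-0.33 ± 0.11 (SE), adjusted p = 0.128, limma). At E7.5, 3 of 24 S genes and 12 of 35 G2/M genes were higher in the cells with T, beside 41.9% of all genes, and with cells thinned to 10000 transcripts 14 of 24 S genes were. The summed S score at E6.75 differed by 2.62 ± 3.74 (SD) per 10000, higher with T in 5 of 6 libraries. The G2/M score differed by 7.28 ± 9.51 (SD), higher in 4 of 6. At E7.5 these differences were -0.97 ± 4.42 (SD) and -0.64 ± 7.57 (SD), each higher in 4 of 10. In cells thinned to 10000 transcripts the E6.75 differences were 1.30 ± 11.2 (SD) for S and 6.81 ± 12.7 (SD) for G2/M, each higher in 2 of 4 libraries. The thinned E7.5 differences were 0.32 ± 3.63 (SD), higher in 4 of 10, and -6.23 ± 8.27 (SD), higher in 3 of 10. By role group, the smallest p at E7.5 further belonged to Mcm4 (-0.13), Rrm2 (-0.076), Pcna (-0.23), Ccnb1 (-0.15), Ube2c (-0.20), Cenpf (0.33), Hmmr (-0.30) and Top2a (0.20). At E6.75 it belonged to Mcm6 (0.059), Cdt1 (0.12), Rrm1 (0.11), Aurka (-0.15), Bub1 (0.12), Cenpf (0.11), Nusap1 (-0.13) and Mki67 (0.13). The difference of the stages called 0.653% of all genes, and of the members Cdt1 had the smallest p (-0.45 ± 0.13 SE, adjusted p = 0.136, limma), with 8 members below 0.05 before adjustment, beside 803 of all genes. None of 50 further G2/M genes was called at either stage. Of 35 further S genes only Dscc1 was, lower in T cells at E7.5 (-0.80 ± 0.18 SE) and in the difference of the stages (-0.96 ± 0.22 SE, adjusted p = 0.0395, limma), the latter in 14 of 27 other settings.

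Mesp1 marks nascent mesoderm, including that of the heart. At E6.75 it was detected in 50 cells and only replicates 2_9, 2_13 and 2_14 entered, and at E7.5 in 137 cells and 10 libraries. The median cell with Mesp1 held 60689 transcripts at E6.75 against 36881 without, and 39597 against 26201 at E7.5. No member was called at E6.75, against 2.64% of all genes, with 4 below 0.05 before adjustment by limma, beside 987 of 8110 genes, and the smallest p for Chaf1b (-0.49 ± 0.16 (SE), adjusted p = 0.132). At E7.5 only Cdc45 was called, against 7.45% of all genes, and it was higher. It ran from 39.6 to 73.8 CPM (median 49.9) in the cells with Mesp1 and 24.5 to 55.4 CPM (median 36.5) in the others. The arms overlapped across libraries, but 9 of 10 libraries had more in the cells with Mesp1 (log2 fold change 0.48 ± 0.15 (SE), adjusted p = 0.0443, limma). The call was lost without any 1 of E7.5 replicates 2, 3, 4, 6, 8, 9 and 10, and in 5 other settings, among them keeping cells with at least 5000 transcripts. Of the S genes 16 of 24 were higher in the cells with Mesp1 and of the G2/M genes 9 of 35, with median log2 fold changes of 0.040 and -0.098, beside 50.5% of all genes higher and a median of 0.0025. With cells thinned to 10000 transcripts the medians were 0.0996 and -0.22. The summed scores at E6.75 differed by 5.02 ± 8.87 (SD) per 10000 for S and 5.11 ± 10.8 (SD) for G2/M, each higher in 2 of 3 libraries. At E7.5 the S score differed by -0.53 ± 6.44 (SD), higher in 5 of 10, and the G2/M score by -1.60 ± 8.35 (SD), higher in 4 of 10. In the thinned cells the E7.5 differences were 3.39 ± 5.09 (SD), higher in 5 of 7, and -6.99 ± 12.7 (SD), higher in 3 of 7. The E6.75 differences turned negative there, at -1.52 ± 1.09 (SD) for S and -7.76 ± 3.67 (SD) for G2/M, each higher in 0 of 2 libraries. Without the cells that passed the marker thresholds the E6.75 differences were 3.38 ± 8.67 (SD), higher in 1 of 3, and 4.89 ± 11.6 (SD), higher in 2 of 3. Among the G2/M genes, Ube2c (-0.29), Ccnb1 (-0.26), Ect2 (-0.39), Nuf2 (-0.28) and Hmgb2 (0.070) had the smallest p of their role groups, with adjusted p of 0.133 to 0.52 (limma). For the S genes these were Mcm5 (0.041), Rrm1 (0.11) and Clspn (0.34). Tubb4b, a tubulin of the further G2/M genes, fell (-0.38 ± 0.079 SE, adjusted p = 0.0026, limma), as did Dbf4 (-0.31 ± 0.094 SE), whose call held in only 8 of 25 other settings. Between the stages 0.567% of all genes were called and no member, with 4 below 0.05 before adjustment (limma), beside 679 of all genes, and the smallest p for Pola1 (-0.80 ± 0.23 SE, adjusted p = 0.138).

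Foxa2 marks the anterior streak, definitive endoderm and node, and also visceral endoderm. It was detected in 132 cells at E6.75 and 61 at E7.5, and 5 and 4 libraries entered. At E6.75, 30 of the 132 cells passed the threshold on visceral endoderm or extraembryonic ectoderm markers, against 21 of 411 others, and visceral endoderm markers made up 0.239% of their transcripts against 0.0427%. Of 59 members tested, only Clspn, Hells and Hmgb2 were called, each lower in the cells with Foxa2. With 5.17% of all genes called, the members were called about as often as genes in general. Clspn was at 81.0, 53.8, 54.8, 79.4 and 75.9 CPM in the cells with Foxa2 of replicates 1_10, 2_9, 2_12, 2_13 and 2_14 and at 113, 80.9, 92.2, 100.3 and 83.7 CPM in the others. It was lower in 5 of 5 libraries (log2 fold change -0.43 ± 0.11 (SE), adjusted p = 0.0208, limma). Hells was at 570.1, 320.0, 349, 298 and 288 CPM with Foxa2 and 510.4, 328, 449.6, 381 and 380.1 CPM without, in the same order, lower in 4 of 5 (-0.26 ± 0.069 (SE), adjusted p = 0.027, limma). Hmgb2 was at 736, 1091, 1235, 995 and 974 CPM against 882, 1142, 1366, 1054 and 1103 CPM, lower in 5 of 5 by a small step (-0.16 ± 0.038 (SE), adjusted p = 0.0142, limma). For each of these genes the libraries of the arms overlapped, so the difference was one within libraries. Without single E6.75 libraries the call was lost for Clspn (1_10, 2_9, 2_12 or 2_13 left out), Hells (2_12, 2_13 or 2_14) and Hmgb2 (2_14), and 1 to 4 members were called.

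The direction was shared by the S genes at E6.75, where 23 of 24 were lower in the cells with Foxa2 (median log2 fold change -0.15), while 19 of 35 G2/M genes were higher (median 0.013). Over all genes, 51.3% were higher and the median was 0.0066. Without the cells that passed the marker thresholds, 18 of 24 S genes were lower (median -0.062) and no member was called. At E7.5 Rrm2 alone was called, against 2.1% of all genes. It was at 339.5, 366, 231 and 191 CPM in the cells with Foxa2 of replicates 1, 2, 7 and 12 and at 431, 406, 328 and 292 CPM in the others, lower in 4 of 4 (log2 fold change -0.35 ± 0.089 (SE), adjusted p = 0.0396, limma). This call too was lost without those cells, with cells thinned to 10000 transcripts, and without any 1 of E6.75 replicates 1_10, 2_9 and 2_14 and E7.5 replicates 1, 7 and 12. By role group the smallest p at E6.75 further belonged to Mcm3 (-0.20), Cdc6 (-0.15), Rrm2 (-0.16), Cdk1 (0.11), Bub1b (-0.15), Ndc80 (0.23) and Ckap2 (-0.23). At E7.5 it belonged to Mcm2 (-0.28), Cdt1 (-0.50), Dtl (-0.37), Ccna2 (-0.27), Ube2c (-0.36), Cenpf (0.30), Hmmr (-0.42) and Hmgb2 (-0.19). Of the further S genes 4 of 35 fell at E6.75, led by Atad2 (-0.32 ± 0.080 SE), Rpa2 (-0.31 ± 0.078 SE) and Cdca7 (-0.24 ± 0.071 SE), whose calls held in 11, 13 and 10 of 21 other settings, and of 50 further G2/M genes G2e3 fell (-0.36 ± 0.094 SE) and Arl6ip1 rose (0.20 ± 0.042 SE). The summed S score differed by -3.32 ± 3.24 (SD) per 10000 at E6.75, lower with Foxa2 in 4 of 5 libraries, and by -4.89 ± 2.12 (SD) at E7.5, lower in 4 of 4. Without the cells that passed the marker thresholds the E6.75 difference of the S score was -0.34. The G2/M score differed by 5.23 ± 8.57 (SD) at E6.75, higher in 3 of 5, and by -3.69 ± 5.30 (SD) at E7.5, higher in 2 of 4. In cells thinned to 10000 transcripts the E6.75 differences were -6.12 ± 4.95 (SD) for S, higher in 1 of 4, and 2.19 ± 4.06 (SD) for G2/M, higher in 2 of 4. The thinned E7.5 differences were -2.12 ± 1.83 (SD) and -14.5 ± 12.2 (SD), each higher in 0 of 2 libraries. At E7.5, 6 of 24 S genes and 10 of 35 G2/M genes were higher, beside 51.8% of all genes. Their median log2 fold changes were -0.11 and -0.10. With cells thinned to 10000 transcripts 10 of 24 and 5 of 35 were higher, with medians of -0.088 and -0.34. Between the stages 0.74% of all genes were called and no member, with 8 below 0.05 before adjustment (limma), beside 1083 of 10268 genes, and the smallest p for Clspn (0.56 ± 0.21 SE, adjusted p = 0.298).

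Sox2 marks epiblast and prospective neural cells, and is also expressed in extraembryonic ectoderm. It was detected in 394 cells at E6.75 and 193 at E7.5, and 6 and 10 libraries entered. At E6.75, 25 of the 394 cells passed the threshold on visceral endoderm or extraembryonic ectoderm markers, against 26 of 149 others. Visceral endoderm markers made up 0.0419% of the transcripts with Sox2 and 0.219% without. The median cells with and without Sox2 held 49468 and 12745 transcripts at E6.75, the widest gap of the 4 markers at that stage, and 34084 and 27143 at E7.5. Ccnb1 was higher in cells with Sox2 at both stages, the one member called at both. At E6.75, where 5.8% of all genes were called, it ran from 347 to 514 CPM (median 422) in the cells with Sox2 and 252 to 441 CPM (median 336) in the others. It was higher in 6 of 6 libraries (log2 fold change 0.29 ± 0.076 (SE), adjusted p = 0.0201, limma). At E7.5, where 10.4% were called, it ran from 259 to 411 CPM (median 316) in the cells with Sox2 and 191 to 289 CPM (median 224) in the others. Here 9 of 10 libraries were higher (0.42 ± 0.082 (SE), adjusted p = 7.00e-04, limma), and this call held in every setting tried and without each library in turn. The E6.75 call was lost without replicate 2_13, without the cells that passed the marker thresholds, without the deepest cells, with a trend in place of weights and with no replicate block, at log2 fold changes of 0.24 to 0.32. It was also lost with detection set at 2 transcripts (0.19) and with cells thinned to 10000 transcripts, where the log2 fold change was 0.034.

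Also at E7.5, Chaf1b, a subunit of the histone chaperone CAF-1, was higher in cells with Sox2, from 74.0 to 156 CPM (median 120.1) in the cells with Sox2 and 59.9 to 122 CPM (median 88.2) in the others. Of 10 libraries 9 were higher (0.33 ± 0.10 (SE), adjusted p = 0.0401, limma). Rrm2 was lower in 9 of 10, with 145 to 361 CPM (median 304) in the cells with Sox2 and 271 to 451 CPM (median 349) in the others (-0.29 ± 0.081 (SE), adjusted p = 0.0168, limma). Both overlapped between the arms. The call on Chaf1b was lost without any 1 of E7.5 replicates 1, 3, 4, 7, 8, 10 and 11, and also without the filter on low counts and, separately, without the cells that passed the marker thresholds. That on Rrm2 was lost without replicate 2 (-0.24) and with detection set at 2 transcripts (-0.21). Both were lost with cells thinned to 10000 transcripts, where the log2 fold changes were 0.32 for Chaf1b and -0.26 for Rrm2, and with no replicate block (0.21 and -0.30). Without replicate 1, 7 members were called. In the other role groups the smallest p at E7.5 belonged to Mcm2 (0.21), Cdc6 (-0.45), Ube2c (0.29), Aurkb (0.40), Nusap1 (0.45) and Top2a (0.26), with adjusted p of 0.0646 to 0.122 (limma). At E6.75 it belonged to Mcm6 (0.18), Cdt1 (0.057), Tyms (-0.16), Pola1 (0.18), Ube2c (0.10), Aurkb (0.28), Hmmr (0.22) and Top2a (0.16). The summed scores at E6.75 were higher with Sox2 in 6 of 6 libraries, by 6.61 ± 5.09 (SD) for S and 9.35 ± 5.79 (SD) for G2/M per 10000. In cells thinned to 10000 transcripts the S difference was 3.91 ± 3.11 (SD), higher in 6 of 6, and the G2/M difference -0.64 ± 5.83 (SD), higher in 3 of 6. Without the cells that passed the marker thresholds they were 5.37 ± 5.86 (SD), higher in 5 of 6, and 10.5 ± 6.35 (SD), higher in 6 of 6. At E6.75, 16 of 24 S genes and 25 of 35 G2/M genes were higher with Sox2, beside 43.8% of all genes. Without those cells 9 of 24 and 23 of 35 were (median log2 fold changes -0.032 and 0.080). With cells thinned to 10000 transcripts 21 of 24 and 15 of 34 were higher, with medians of 0.14 and -0.0051. At E7.5 the scores differed by 1.62 ± 4.90 (SD) for S and 3.90 ± 9.77 (SD) for G2/M, each higher in 7 of 10. Of the further S genes 1 rose and 1 fell at E6.75, and 3 rose and 2 fell at E7.5, and of 49 further G2/M genes tested 1 rose at E6.75, and 3 rose and 1 fell at E7.5. Ccne2, an E-type cyclin, was lower in cells with Sox2 at E6.75 (-0.69 ± 0.18 SE) and E7.5 (-0.57 ± 0.17 SE). G2e3 (0.75 ± 0.15 SE), Gas2l3 (1.10 ± 0.30 SE) and Psrc1 (0.71 ± 0.20 SE) of the G2/M list were higher at E7.5. Gins3 (-0.46 ± 0.15 SE) of the S list was lower, a call that held in only 5 of 27 other settings. At E6.75 Nasp (0.21 ± 0.054 SE) and Tubb4b (0.19 ± 0.054 SE) were higher. The difference of the stages was called for 2.75% of all genes and for no member, with 2 below 0.05 before adjustment (limma), beside 1143 of 7971 genes, and the smallest p for Rrm2 (-0.28 ± 0.12 SE, adjusted p = 0.243).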

How the data were processed

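Single-cell libraries of 6 E6.75 and 12 E7.5 samples were used as deposited, with groups and replicate names from the labels. The deposited values are estimated transcript counts: the authors corrected molecular identifier counts for collisions in a pool of 4096, as each value in the files equals that correction of a whole number. The submitters' processing notes name bcl2fastq 2.17.1.14 and BWA 0.6.2-r126, while the genome build and annotation are not given in the sources used here. Of the 192 columns of a file, 96 were taken as the used barcodes. They held from 96.7% (E7.5 replicate 10) to 99.97% (E6.75 replicate 1_11) of its nuclear transcripts. The other columns were left out, and the source of their transcripts was not tested.

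Cells with at least 2000 nuclear transcripts were kept, with no doublet caller. Counts were summed per library (at least 10 kept cells), or per library and detection of a marker (at least 5 cells in each), filtered on low counts, scaled by TMM and tested with limma 3.58.1 in R 4.3.3 (voom weights, Benjamini-Hochberg adjustment over all genes, threshold 0.05). The marker fits held the library as a block and both stages, whose difference was an interaction term. The design had named a negative binomial count model. It was not run, because the unit of the deposited values could not be checked and was recorded as other. The values are nevertheless corrected counts, as described above. Limma was used in place of the count model, and the steps were tested on simulated data. Between stages, 59 of 100 genes changed 1.5-fold and 99 of 100 changed 2-fold were recovered, with 2 false calls among 160. For T cells at E7.5 it was 46 and 97 of 100, with 8 false calls among 151. Changes of 1.5-fold were thus often missed. Phase scores were the summed transcripts of the S or G2/M genes per 10000 nuclear transcripts. Python 3.11.15, numpy 2.4.6, pandas 2.3.3 and scipy 1.17.1 did the rest.

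The 60 members, their role groups and all gene lists were chosen with earlier results of these data known. Genes were named by a rule: per comparison and role group, up to 4 called members of largest change, or else the one with the smallest p, and up to 3 called genes of each further list. Members outside it were named to account for all 60, and a few genes outside the members that the rule selects are not reported here. Alternatives were other scalings, filters, cell thresholds, thinning and leaving out each library.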

Additional observations from a re-analysis of the deposited data

Results flagged for a closer look

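A library stood apart from the other E6.75 libraries by Dixon's test in 6 of 62 groups of values examined, where chance gives about 1 in 20. Cdc45 was at 33.5 CPM in replicate 2_13 and at 22.8 to 26.6 CPM in the other libraries. Replicate 1_10 stood apart for 3 genes, with Gins2 at 72.8 CPM against 110.8 to 119 CPM, Rfc2 at 97.6 CPM against 80.5 to 86.2 CPM and Nusap1 at 94.6 CPM against 62.5 to 72.0 CPM. Anln was at 49.3 CPM in replicate 2_12 against 74.5 to 81.4 CPM. The summed S score of replicate 2_9 was 37.4 per 10000 against 44.5 to 48.4 in the others. In the same replicate the S and G2/M scores of single cells had the positive correlation of 0.14.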

How the results depend on the processing

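The stage comparison called 26 to 36 members in place of 31 in the settings other than thinning, 27 to 32 with 1 library left out, and 14 with each cell thinned to 2000 transcripts, where Mcm4 (0.0753) and Mcm6 (0.117) reversed. Of 835 repeats of the 31 calls 763 held, 70 were lost and 2 reversed. Without the low count filter the median of all genes moved to 0.52, and with scaling by total transcripts to 0.084. The G2/M score had a log2 ratio of -0.374 (-0.399 to -0.352 with 1 library left out) and of -0.232 as a mean of log2 values. That of the S score was -0.022 (-0.0717 to -0.00207), and 0.028 with the E6.75 libraries of title prefix 2. Thinning to 5000 transcripts lowered the mean pair correlation to 0.0329 (S) and 0.0535 (G2/M). The causes were not tested.

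Marker comparisons moved more. T at E7.5 had 1 member called without visceral endoderm and extraembryonic ectoderm cells (Cdt1), with detection at 2 transcripts (Hmmr) or thinned to 10000 (Ube2c), and its difference between stages 1 without the filter (Cdc20) or with detection at 2 (Hmmr). Mesp1 at E6.75 had 1 with detection at 2 (Chaf1b). Mesp1 at E7.5 had 0 without the filter, from 5000 transcripts, without extraembryonic cells, without deep cells or with a trend, 2 with detection at 2 or thinned, and 0 to 2 with 1 library left out, and its difference 0 to 1. Foxa2 at E6.75 had 10 without the filter, 0 without extraembryonic cells, with a trend or with no replicate block, 1 thinned, and 1 to 4 with 1 library left out. Foxa2 at E7.5 had 6 without the filter, 2 with detection at 2, 0 with RLE scaling, without extraembryonic cells, with the prefix 2 libraries, thinned or with no replicate block, and 0 to 1 with 1 library left out. Sox2 at E6.75 had 13 without the filter, 3 with detection at 2, 2 with RLE or total scaling, 0 without extraembryonic or deep cells, with a trend, thinned or with no replicate block, and 0 to 2 with 1 library left out. Sox2 at E7.5 had 7 with detection at 2, 1 thinned, and 2 to 7 with 1 library left out, and its difference 2 without the filter and 1 thinned. Of 221 repeats of the 9 marker calls 151 held and 70 were lost.

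The total scaling and the trend were chosen after seeing the data. The planned DESeq2 alternative was not run. No paired analysis was possible between stages because their libraries came from different embryos. Low members such as Fen1 could not show small differences at this depth.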
